A study of Mus musculus with 3 samples.

Results

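The cells described here are the medullary myofibroblasts of the mouse kidney, taken as every cell that the authors' deposited annotation places in the cluster MyoFib of the fibroblast lineage. There were 11218 such cells, 6.19% of the 181257 annotated cells. The lineage, labelled Fib as a cell type, held 19366 cells in 3 clusters: MyoFib, Fib with 6176 cells and the pericyte cluster Peri with 1972. All 10 pools contributed MyoFib cells, between 252 and 2826 each.

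Kidney papillae of male BALB/c mice were profiled by single-cell sequencing of fixed RNA in healthy controls (4 pools), 28 days after reversible unilateral ureteric obstruction, or R-UUO (4 pools), and 84 days after it (2 pools). In R-UUO, the ureter of 1 kidney was clamped and later released, and the other kidney was then removed, so the mice in both later groups lived on the kidney that had been obstructed. Controls had healthy kidneys. Each pool combined the papillae of 3 to 4 kidneys, so a value per pool is already an average over mice, and the dissection took along a variable amount of outer medulla.

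Myofibroblasts are contractile, matrix-secreting cells of the interstitium, defined in most organs by smooth muscle actin (Acta2) and by fibrillar collagens such as Col1a1. In the renal medulla, resident interstitial fibroblasts lie between the tubules and the vasa recta, and pericytes wrap those vessels. Both are known as possible sources of myofibroblasts when a kidney scars. The deposited values analysed here are per cell and hold no gene expression, so Acta2 and Col1a1 could not be read and the label MyoFib was not checked against its markers. All results concern how many MyoFib cells there were, among which other cells, and how much RNA and how many genes were counted in each.

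The pools held 13013 to 24338 cells with pool medians of 751 to 3302 UMIs per cell (unique molecular identifiers, the counted RNA molecules), lowest at day 84. Of the MyoFib cells, 1 had fewer than 300 detected genes and 0 had over 10% mitochondrial counts. Droplet barcodes recurred between pools of the same condition (median 25.4% of the smaller pool) far more than between conditions (2.78%). For MyoFib cells alone the shares were 2.05% and 0.230%. Pools of a condition thus appear to have shared a droplet run, so that run and condition cannot be told apart in any comparison.

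The first question was how far MyoFib cells made up the fibroblast lineage. They were the minority in every control pool and the majority in every pool after R-UUO. In the controls they made up 25.9%, 35.9%, 22.5% and 19.1% of lineage cells in pools 1 to 4. At day 28 the shares were 70.6%, 79.1%, 70.0% and 89.5%, and at day 84 they were 81.2% and 64.4%. The lowest pool after R-UUO thus lay above the highest control pool. Pools of the same condition differed by more than counting error, as between D28 3 and D28 4, whose 95% Wilson intervals were 68.0% to 71.9% and 88.3% to 90.5%.

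The mean share was 25.8% ± 7.29 (SD of 4 pools) in controls, 77.3% ± 9.13 (SD of 4 pools) at day 28 and 72.8% ± 11.9 (SD of 2 pools) at day 84. On the log2 odds scale, the rise was 3.43 at day 28 (standard error, SE, 0.487, adjusted p = 1.54e-04 in limma) and 3.03 at day 84 (SE 0.596, adjusted p = 0.00210 in limma). The fit covered 23 clusters within their own cell types, and 82.6% of them passed an adjusted p of 0.05 at day 28 and 39.1% at day 84, so a change as such was common. The MyoFib rise was the fourth highest of the 23 estimates at both times. Day 84 did not differ from day 28 beyond the spread between pools (log2 odds −0.39, limma adjusted p = 0.564), a contrast in which 17.4% of clusters passed. The direction of that difference rested on single pools, at −1.02 without D84 1, 0.23 without D84 2 and 0.011 without D28 4. Exact two-sided permutation tests over pools gave p = 0.0286 at day 28 and p = 0.0667 at day 84, each the smallest value the number of pools allows.

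Against the other members of the lineage, MyoFib rose most relative to Fib, the cluster of resident medullary fibroblasts. There were 0.395, 0.707, 0.350 and 0.257 MyoFib cells per Fib cell in the 4 control pools. The ratio was 5, 9.73, 3.95 and 29.1 at day 28, and 8.26 and 2.58 at day 84. Control pools did not overlap with later pools, and D28 4, with 97 Fib cells, gave the highest ratio. The log2 change was 4.44 at day 28 (SE 0.688, adjusted p = 2.78e-04 in limma) and 3.53 at day 84 (SE 0.843, adjusted p = 0.00625 in limma).

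Relative to pericytes the rise was smaller. MyoFib cells per Peri cell numbered 2.98, 2.72, 1.70 and 2.86 in controls, 4.62, 6.21, 5.67 and 12.0 at day 28, and 8.995 and 6.04 at day 84. It was again higher in every pool after R-UUO than in any control pool, with log2 changes of 1.41 (SE 0.422, adjusted p = 0.0119 in limma) and 1.56 (SE 0.517, adjusted p = 0.0312 in limma). Peri kept a mean 10.4% ± 3.296 (SD of 4 pools) of lineage cells in controls, 12.0% ± 3.27 (SD of 4 pools) at day 28 and 9.84% ± 1.16 (SD of 2 pools) at day 84, with log2 odds changes of 0.23 and −0.043 that did not pass (adjusted p = 0.578 and 0.922, limma).

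Among all cells of a pool, MyoFib cells rose as well, with more spread. They made up 2.82%, 2.63%, 1.75% and 2.14% of control pools, 4.61%, 8.33%, 9.07% and 18.1% of day 28 pools, and 9.69% and 5.62% of day 84 pools. Every later pool lay above every control pool, while the day 28 pools themselves ranged widely. By number of cells, MyoFib was the 11th to 13th largest of the 25 clusters in control pools. It ranked 9, 4, 2 and 1 in the day 28 pools and 2 and 6 at day 84. The mean went from 2.33% ± 0.484 (SD of 4 pools) to 10.0% ± 5.74 (SD of 4 pools) and 7.66% ± 2.88 (SD of 2 pools).

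**Figure D1:**
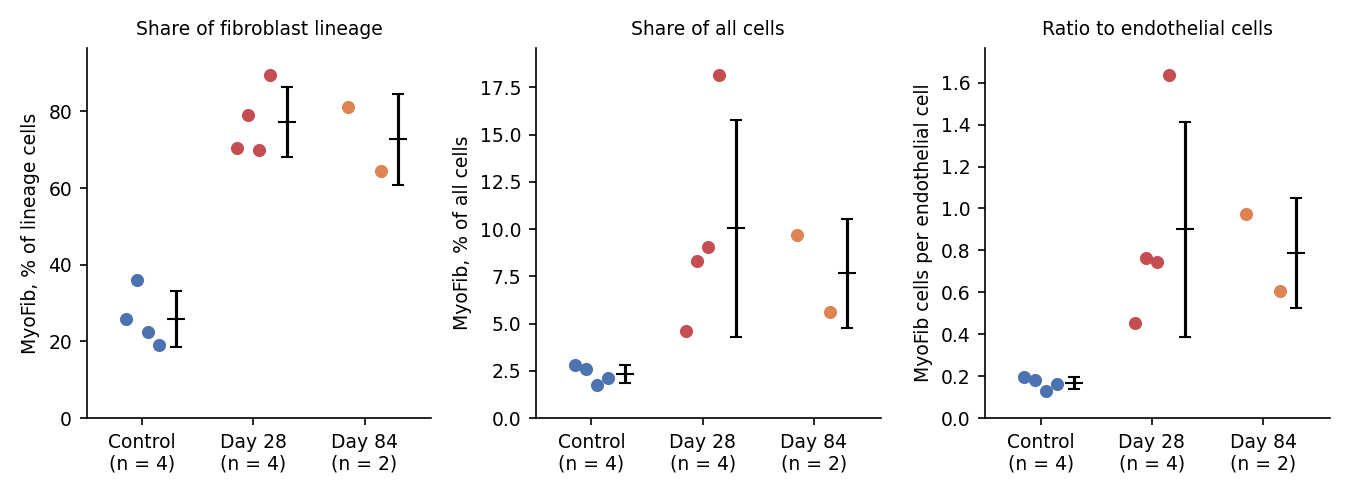
MyoFib cells per pool as a percentage of fibroblast lineage cells (left), as a percentage of all cells (middle) and per endothelial cell (right), in control, day 28 and day 84 pools. Points are pools and bars are the mean ± SD; all pools after R-UUO lie above all control pools in each panel, and D28 4 is the highest pool with 18.1% of all cells.

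The change in log2 odds among all cells was 2.08 at day 28 (SE 0.443, adjusted p = 0.00251 in limma) and 1.77 at day 84 (SE 0.542, adjusted p = 0.0232 in limma). In that fit 88% of the 25 clusters passed at day 28 and 48% at day 84, and MyoFib ranked 9 and 10 from the highest estimate. The later times differed by −0.31, day 84 minus day 28 (adjusted p = 0.659, limma), with 8% of clusters passing. This difference was −0.74 without D84 1 and turned to 0.11 without D84 2 and to 0.074 without D28 4. The day 84 call was lost without D84 1 (1.34, limma adjusted p = 0.182) and without Control 3 (1.63, limma adjusted p = 0.0537), and with the probe barcode as a block (1.60, limma adjusted p = 0.109).

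Within day 28, the share of proximal tubule cells, which lie outside the inner medulla, fell from pool to pool as the MyoFib share rose. Proximal tubule cells made up 22.8% of D28 1, the day 28 pool with the fewest MyoFib cells, 21.2% of D28 2 and 12.98% of D28 3. They made up 2.95% of D28 4, the pool with the most. At day 84 they made up 7.64% of D84 2, the pool with fewer MyoFib cells, and less of D84 1. In the controls they made up 0.113% to 3.02%, without that order. Control 2 had the most proximal tubule cells and 2.63% MyoFib cells, and Control 4 the fewest and 2.14%. Shares of other outer medullary clusters were not compared in this way. With proximal tubule cells left out, the MyoFib change was 2.32 at day 28 and 1.84 at day 84, and with the outer medullary clusters left out too it was 2.56 and 2.03 (adjusted p = 8.39e-05 and 0.00218, limma). Both denominators gave a larger rise than all cells did. Proximal tubule cells were a mean 1.17% of cells in controls, 15.0% at day 28 and 5.62% at day 84. Leaving them out therefore raises the later MyoFib shares by arithmetic.

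The lineage as a whole did not grow beyond the spread between pools. It made up 9.29% ± 2.04 of control cells, 12.6% ± 5.78 of day 28 cells and 10.3% ± 2.27 of day 84 cells (SD over 4, 4 and 2 pools), and the groups overlapped (exact permutation p = 0.429 and 0.467). Within it, the Fib cluster went from 6.04% ± 2.07 of all cells in 4 control pools to 1.17% ± 0.758 in 4 pools at day 28 and 1.68% ± 0.714 in 2 pools at day 84. In log2 odds it fell by 2.55 at day 28 and fell by 1.91 at day 84 (adjusted p = 0.00118 and 0.0223, limma), next to the MyoFib rises of 2.08 and 1.77. Pericytes changed by 0.56 at day 28 (adjusted p = 0.0330 in limma, p = 0.0571 in the exact permutation test) and by 0.13 at day 84 (adjusted p = 0.665, limma).

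Setting the epithelium aside gave a view that does not depend on how many tubule cells a pool held. Among non-epithelial cells (fibroblast lineage, endothelial and immune), MyoFib made up 9.97% ± 1.85 (SD of 4 pools) in controls, 34.8% ± 10.3 (SD of 4 pools) at day 28 and 33.7% ± 7.59 (SD of 2 pools) at day 84. The log2 odds change in the fit over these clusters was 2.26 at day 28 and 2.20 at day 84 (adjusted p = 3.51e-04 and 0.00199, limma). Per endothelial cell there were 0.197, 0.183, 0.128 and 0.162 MyoFib cells in control pools, 0.454, 0.764, 0.745 and 1.64 at day 28, and 0.975 and 0.604 at day 84. In D28 4 MyoFib cells outnumbered endothelial cells, which happened in no other pool.

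The number of MyoFib cells per cell of each other cluster showed on which populations they gained. At day 28 MyoFib rose relative to 15 of the 24 other clusters and fell relative to 4. At day 84 it rose relative to 12 and fell relative to 3. Among all 300 pairs of clusters, 72.3% changed at day 28 and 46.7% at day 84, the background for the 19 and 15 of 24 MyoFib pairs.

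Apart from Fib, the clusters that lost most against MyoFib are named for the inner medulla, its thin limbs or its vessels. EndoVR/papilla, the vasa recta endothelium of the papilla, gave the highest ratio changes, 5.03 at day 28 and 4.22 at day 84. The inner medullary collecting duct clusters deepIM-CD and IM-CD gave 4.39 and 4.32 at day 28 and 3.03 and 2.64 at day 84. ATL, the ascending thin limb, gave 4.22 and 2.99, and IM-TL, inner medullary thin limb cells, 3.77 and 3.02. All of these passed the limma test at both times (highest adjusted p = 0.0413). EndoVR/papilla numbered 8 cells in D28 4, so its ratio there rests on few cells.

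The clusters that gained on MyoFib were those named for injury, the immune cells and, at day 28, a proximal tubule cluster. InjuredLOH, injured loop of Henle cells, rose more than MyoFib, so that the MyoFib ratio fell by 4.17 at day 28 and by 3.64 at day 84 (adjusted p = 1.93e-05 and 4.05e-04, limma). Against InjuredCD, injured collecting duct cells, it fell by 3.48 and by 4.34 (adjusted p = 3.65e-05 and 1.02e-04, limma). Against Immune it fell by 2.50 and by 2.27 (adjusted p = 7.06e-04 and 0.00698, limma). These clusters were small in controls, with 8 to 19 InjuredCD cells, 9 to 54 InjuredLOH cells and 16 to 70 Immune cells in a pool. PT-S1S2 gave −3.95 at day 28 (adjusted p = 0.00662, limma) and −2.14 at day 84 (adjusted p = 0.183, limma), and lies in tissue that the dissection took along to a varying degree.

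**Figure D2:**
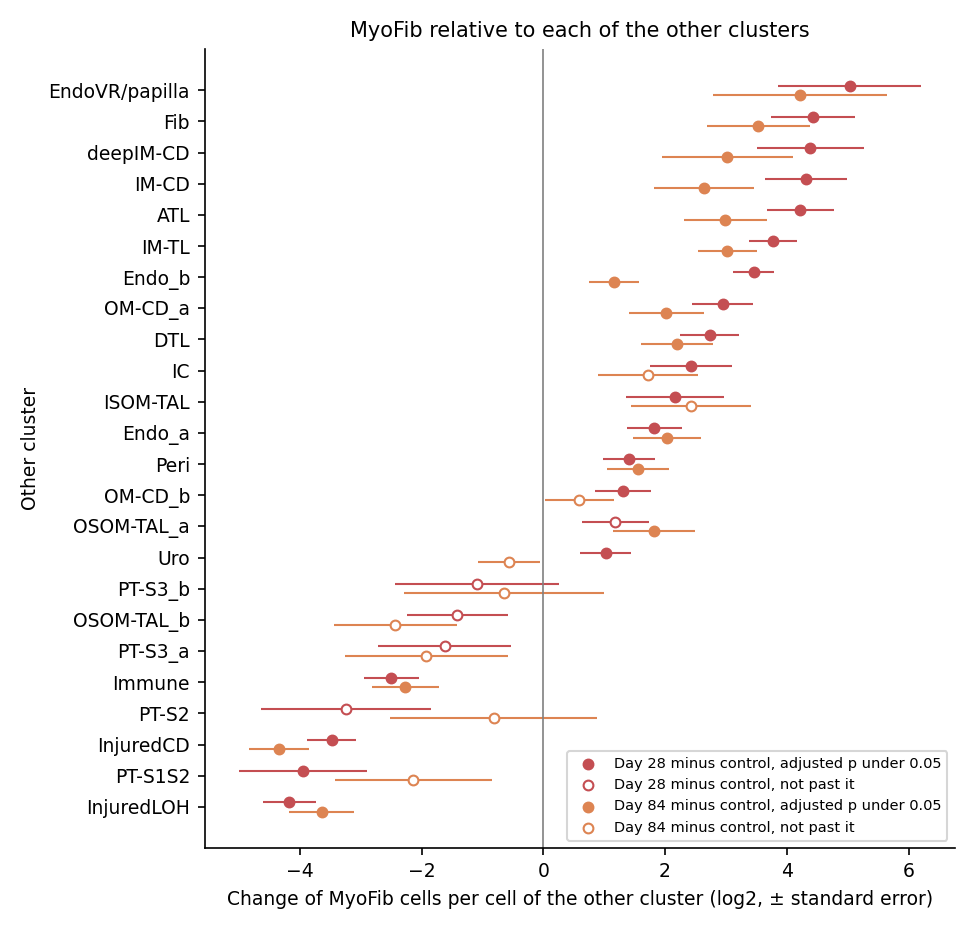
Change in the number of MyoFib cells per cell of each other cluster, in log2 with standard errors, at day 28 (red) and day 84 (orange) against controls; filled points passed a limma adjusted p of 0.05. MyoFib gained most on EndoVR/papilla (5.03 at day 28) and on Fib (4.44), and lost most to InjuredLOH at day 28 (−4.17) and to InjuredCD at day 84 (−4.34).

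Between day 28 and day 84, 0 of the 24 MyoFib ratios changed by limma (2 at an unadjusted p under 0.05), and 0% of all 300 pairs did (64 unadjusted). The 2 were Endo_b, an endothelial cluster, at −2.29 (adjusted p = 0.0673, limma) and Uro, the urothelium, at −1.58 (adjusted p = 0.143, limma). Without D28 4, 2 ratios passed. The number of ratios changed at day 84 against control also depended on the pools, falling from 15 to 4 without D84 1, to 8 without D84 2 or without Control 3, and to 6 with the probe barcode as a block.

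Cells differ in RNA content, so the share of the lineage's RNA was measured beside its share of cells. MyoFib cells held 22.6%, 30.7%, 18.7% and 15.8% of the lineage's UMIs in control pools, 73.9%, 81.6%, 74.0% and 91.6% at day 28, and 82.5% and 65.7% at day 84. In controls this was below their share of cells in 4 of 4 pools, and after R-UUO it was above it in 6 of 6. The log2 odds rise was 4.03 at day 28 (SE 0.526, adjusted p = 1.14e-04 in limma) and 3.46 at day 84 (SE 0.645, adjusted p = 0.00195 in limma), where 78.3% and 39.1% of 23 clusters passed. Between the later times the difference was −0.56 (adjusted p = 0.580, limma), with 8.7% passing. Leaving out single pools moved that difference to −1.21 (without D84 1), 0.084 (without D84 2) and −0.13 (without D28 4).

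The order of the lineage by UMIs per cell turned around. In every control pool the median MyoFib cell held fewer UMIs than the median Fib cell, and in every pool after R-UUO it held more. The control medians were 867, 1042, 785 and 819 UMIs for MyoFib against 1085, 1367, 1068 and 1082 for Fib. At day 28 they were 2805, 1674, 1380 and 1267 against 2207, 1353, 1058 and 792, and at day 84 they were 718 and 697 against 647 and 630. The MyoFib median was 0.763 ± 0.0265 of the Fib median in controls (SD of 4 pools), 1.35 ± 0.166 at day 28 (SD of 4 pools) and 1.11 ± 0.00185 at day 84 (SD of 2 pools). The 3 groups did not overlap with each other.

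**Figure D3:**
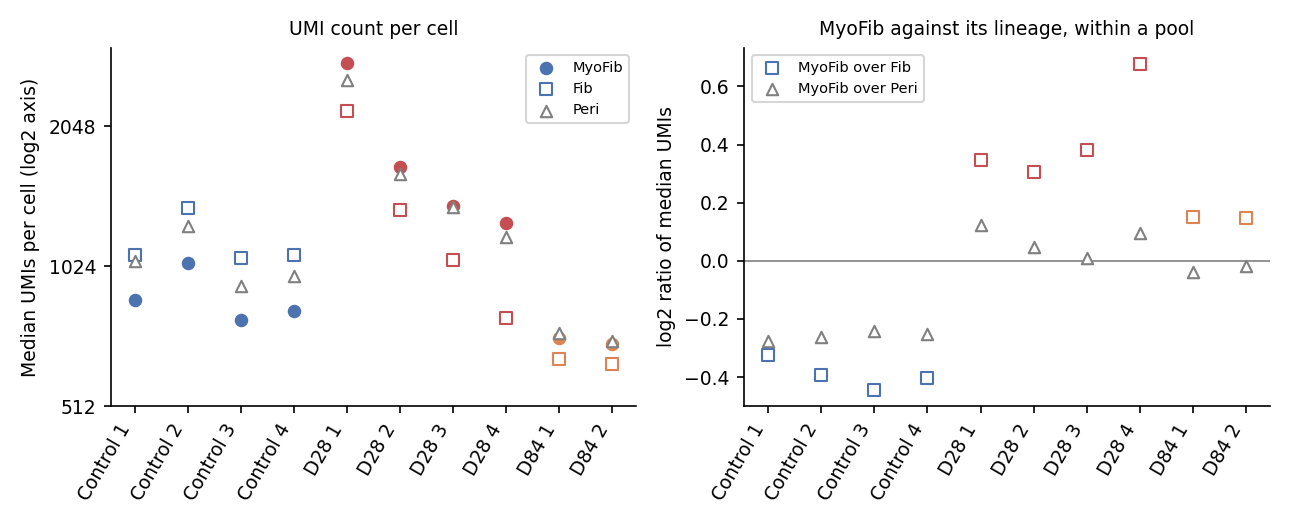
Left, median UMIs per cell (log2 axis) of MyoFib (filled circles), Fib (open squares) and Peri (grey triangles) in each pool; right, the log2 ratio of the MyoFib median to the Fib median (squares) and to the Peri median (grey triangles), with blue for control, red for day 28 and orange for day 84. The MyoFib over Fib ratio is below 0 in the 4 control pools and above 0 in the 6 pools after R-UUO.

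As a change of the within-pool ratio, in which a depth common to all cells of a pool cancels, MyoFib gained 0.82 log2 on Fib at day 28 (SE 0.124, adjusted p = 3.54e-04 in limma, exact permutation p = 0.0286) and 0.54 at day 84 (SE 0.151, adjusted p = 0.0205 in limma, exact permutation p = 0.0667). Of the 24 clusters measured against Fib, 66.7% passed at day 28 and 16.7% at day 84. Most clusters thus changed relative to Fib at day 28, and Fib itself fell by 0.63 relative to its pool (adjusted p = 4.99e-04, limma). From day 28 to day 84 the ratio moved by −0.28 (adjusted p = 0.343, limma), and 0% of clusters passed (4 at an unadjusted p under 0.05). Over the 10 pools together, with the direction differing by condition, an exact sign-flip test of MyoFib against Fib gave p = 0.721.

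Against pericytes, MyoFib had fewer UMIs in 4 of 4 control pools, more in 4 of 4 day 28 pools and slightly fewer in 2 of 2 day 84 pools. The ratio of medians was 0.836 ± 0.00837 (SD of 4 pools), 1.05 ± 0.0365 (SD of 4 pools) and 0.981 ± 0.00876 (SD of 2 pools). The log2 gain was 0.33 at day 28 (SE 0.0583, adjusted p = 0.00129 in limma) and 0.23 at day 84 (SE 0.0713, adjusted p = 0.0289 in limma), where 45.8% and 37.5% of 24 clusters passed. Day 84 minus day 28 was −0.097, and 0% passed (3 at an unadjusted p under 0.05).

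Measured against all cells of the pool, the MyoFib change was smaller and did not pass. The MyoFib median was 0.693 ± 0.0465 of the pool's median in controls (SD of 4 pools), 0.790 ± 0.0484 at day 28 (SD of 4 pools) and 0.858 ± 0.0993 at day 84 (SD of 2 pools). The log2 changes were 0.19 (SE 0.0878, adjusted p = 0.0978 in limma) and 0.31 (SE 0.108, adjusted p = 0.0603 in limma), with 32% and 20% of 25 clusters passing. Of the 8 clusters that passed at day 28, all 8 fell, and the MyoFib estimate was the third highest of 25 at both times. Day 84 against day 28 gave 0.12, and 0% passed (6 unadjusted). With the mean of log2 values in place of the median, both changes passed (0.34 and 0.39). UMI counts in Control 1 were fractional, and its MyoFib over Fib ratio of 0.799 was the highest of the controls, against 0.735 to 0.762 in the other 3.

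Raw UMI counts per MyoFib cell followed the depth of their pool within day 28 and within day 84, but not within the controls. Control 1 had the lowest pool median of the controls (1139), yet its MyoFib median of 867 lay above those of Control 3 (785) and Control 4 (819). MyoFib counts were highest in D28 1, the most deeply read pool with a median of 3302 UMIs over all cells, and lowest at day 84. MyoFib cells also varied more in UMI count at day 28, where the upper quartile was 2.02 to 2.55 times the lower, against 1.55 to 1.73 times in controls and 1.68 and 1.71 times at day 84 (exact permutation p = 0.0286 for day 28). The Fib cluster widened likewise, from 1.54 to 1.63 times up to 1.90 to 2.41 times. Cells over 4000 UMIs were 25.3%, 7.45%, 4.27% and 3.68% of MyoFib cells in the day 28 pools and at most 0.397% elsewhere. Removing the top 5% of cells of each pool by UMI count left the rise within the lineage at 3.42 and 3.03. That cut was set over all cells of a pool. Of these, 9.64% to 38.2% exceeded 4000 UMIs in control and day 28 pools, so the cut removed only cells over 4000 UMIs there. It could thus take few control MyoFib cells, and it tested the rise little.

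The MyoFib share also varied with the depth of the cells counted. Among control lineage cells of 500 to 1000 UMIs, MyoFib made up 38.1% ± 12.8 (SD of 4 pools), and among those of 1000 to 2000 UMIs 16.6% ± 7.75, lower in 4 of 4 pools. At day 28 the share was 75.5% ± 8.78 and 74.1% ± 12.7 in the same windows (SD of 4 pools), lower in the deeper window in 2 of 4 pools, and 88.0% ± 8.27 above 4000 UMIs, higher than at 500 to 1000 UMIs in 4 of 4 pools. At day 84 it was 72.2% ± 10.98 and 75.1% ± 9.62 (SD of 2 pools). Among cells of 1000 to 2000 UMIs alone, the rise within the lineage was 4.11 at day 28 and 4.07 at day 84 (adjusted p = 2.93e-04 and 0.00137, limma). Among cells of 500 to 1000 UMIs it was smaller, at 2.41 and 2.15 (adjusted p = 0.00360 and 0.0207, limma). The size of the rise thus differed between the ranges, and it passed in both.

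**Figure D4:**
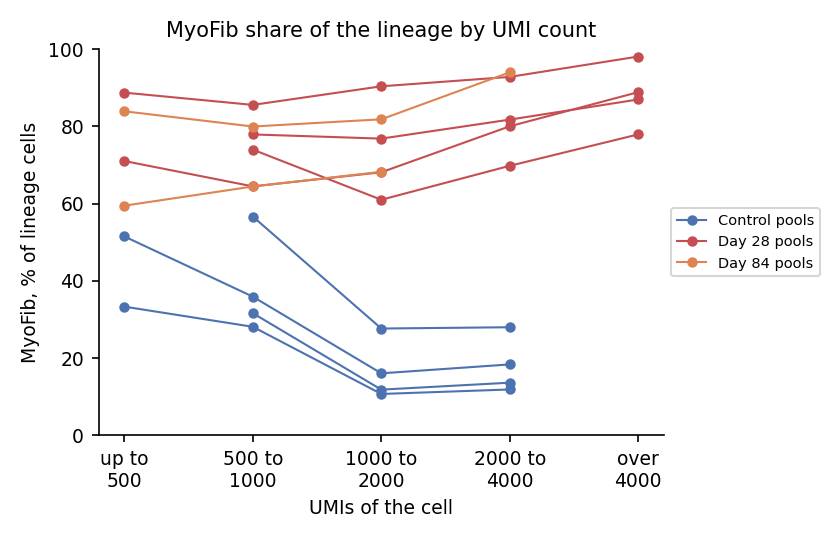
MyoFib cells as a percentage of fibroblast lineage cells within 5 ranges of UMIs per cell, with 1 line per pool and ranges of under 20 lineage cells left out. In the 4 control pools the share falls from the 500 to 1000 range to the 1000 to 2000 range (mean 38.1% to 16.6%), and in the pools after R-UUO it stays above 59% in every range drawn.

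Detected genes per cell followed the UMIs. The median MyoFib cell had 727, 807, 637 and 652 detected genes in control pools, 1819, 1202, 1013 and 961 at day 28, and 590 and 557 at day 84. Day 28 pools were all above the controls, and day 84 pools were all below. Relative to its pool, the number rose by 0.26 log2 at day 28 (SE 0.0722, adjusted p = 0.0147 in limma) and 0.29 at day 84 (SE 0.0884, adjusted p = 0.0349 in limma), where 36% and 32% of 25 clusters passed. At day 28 the MyoFib rise was the only 1 of the 25 to pass, beside 8 falls, and its estimate ranked 3 from the highest. The day 84 call was lost without D84 2 (0.18, limma adjusted p = 0.239), without D28 2 (0.29, limma adjusted p = 0.0501) and without Control 2, 3 or 4 (0.28 each, limma adjusted p = 0.0650 to 0.0773). Day 84 differed from day 28 by 0.028 (adjusted p = 0.821, limma), and 0% passed (5 unadjusted).

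Against Fib the gain in detected genes was 0.76 at day 28 and 0.50 at day 84 (adjusted p = 7.05e-05 and 0.0114, limma), with 66.7% and 8.33% of 24 clusters passing. Against Peri it was 0.26 (adjusted p = 0.00350, limma) and 0.14 (adjusted p = 0.132, limma), with 41.7% and 33.3% passing. Between day 28 and day 84, 0% of clusters passed against either reference (4 and 3 unadjusted).

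Within a shared range of 1000 to 2000 UMIs a smaller difference remained at day 28, though depth inside that range was not matched. MyoFib cells of 1000 to 2000 UMIs had medians of 1013, 919, 938 and 893 detected genes in controls, 1088, 1101, 1045 and 1029 at day 28, and 922 and 859 at day 84. All day 28 pools lay above all control pools, and day 84 overlapped with the controls. The control medians rested on 58 to 291 cells a pool. Relative to all cells of the pool in that range, MyoFib rose by 0.12 log2 at day 28 (SE 0.0310, adjusted p = 0.0111 in limma; 52.2% of 23 clusters passed). Peri gave a similar 0.097 (adjusted p = 0.0478, limma), and Fib gave −0.092 (adjusted p = 0.107, limma). At day 84 the MyoFib difference from control was −0.030 (limma adjusted p = 0.698; 27.3% of 22 passed). That difference changed sign with the setting, being 0.13 among cells of 500 to 1000 UMIs, −0.30 among those of 2000 to 4000 and 0.16 against Fib, and passed in none (adjusted p = 0.172, 0.0698 and 0.0694, limma). Day 84 lay below day 28 by −0.15 (SE 0.0380, adjusted p = 0.0111 in limma; 45.8% of 24 passed), a call lost without D84 1 (adjusted p = 0.0560, limma) or D84 2 (adjusted p = 0.0898, limma) and against Fib (−0.044, adjusted p = 0.612, limma), and turned to 0.025 among cells of 500 to 1000 UMIs (adjusted p = 0.802, limma). Fib and Peri moved the same way between the later times in the 1000 to 2000 range, at −0.10 and −0.11 (adjusted p = 0.134 and 0.0644, limma). Among cells of 2000 to 4000 UMIs the MyoFib difference passed and was larger, at −0.38 (adjusted p = 0.0104, limma). That range held 6 to 56 MyoFib cells in a control pool and 63 and 10 at day 84, and Control 3, with its 6, was left out of the fit. The day 28 rise was 0.10 among cells of 500 to 1000 UMIs and 0.081 among those of 2000 to 4000, and passed in neither (adjusted p = 0.1503 and 0.449, limma).

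**Figure D5:**
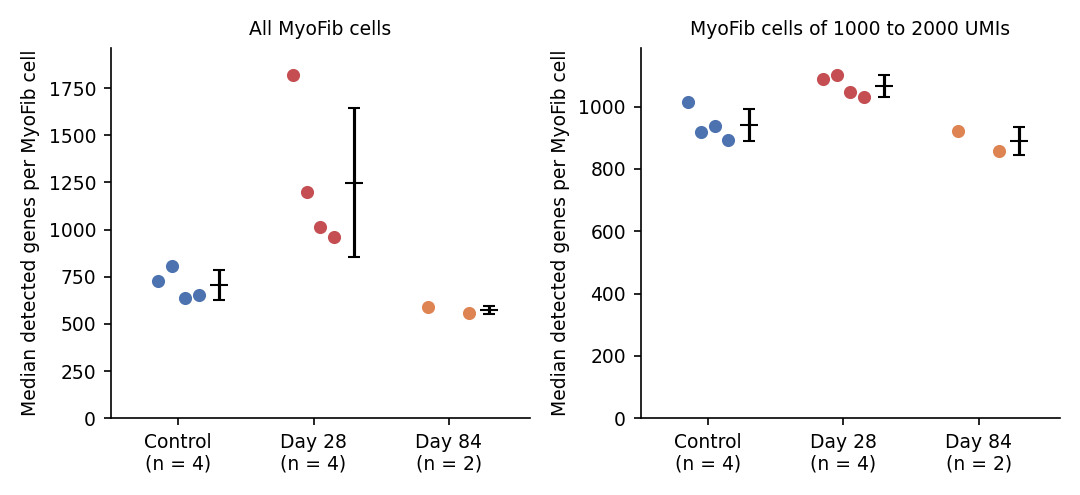
Median number of detected genes per MyoFib cell in each pool, over all MyoFib cells (left) and over those of 1000 to 2000 UMIs (right); points are pools, bars the mean ± SD. Day 28 pools lie above all control pools in both panels, by far less in the range of 1000 to 2000 UMIs (1029 to 1101 against 893 to 1013).

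Mitochondrial counts set the conditions apart in MyoFib cells as in other cells. The mean mitochondrial percent of MyoFib cells was 0.773, 1.49, 0.939 and 0.850 in control pools, 0.191, 0.0127, 0.0133 and 0.0128 at day 28, and 0.0583 and 0.00257 at day 84. MyoFib cells with no mitochondrial UMI at all made up 0% to 2.07% of control pools, 28.8% to 91.5% of day 28 pools and 73.2% and 98.7% of day 84 pools. No later pool overlapped with the controls, and D28 1 stood apart from the other 3 day 28 pools. The mean over all cells fell alongside, from 1.82% in controls to 0.265% at day 28 and 0.121% at day 84. As a ratio to its pool, the MyoFib mean was 0.478 to 0.615 in controls, 0.0631 to 0.366 at day 28, and 0.426 and 0.0243 at day 84, lower in every later pool than in any control pool. The later ratios are of values near 0. Fib and Peri also fell, from means of 0.970% and 1.03% in controls to 0.0828% and 0.0858% at day 28. At day 84 they were 0.0512% and 0.0101%. The gap in percentage points between MyoFib and its pool narrowed by 0.60 and 0.72 (adjusted p = 3.27e-04 and 3.32e-04, limma; 80% and 84% of 25 clusters passed), but a gap in points narrows when both means approach 0, so nothing about MyoFib is read from it. Between the later times it moved by 0.12, and 0% of clusters passed (2 unadjusted).

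Within the lineage the change of the gap did not pass, but this gap too shrinks when both means approach 0, so nothing about MyoFib is read from it. The MyoFib mean minus the Fib mean was −0.0238 to 0.0943 percentage points in controls, −0.0944 to 0.00262 at day 28, and −0.0441 and 0.00257 at day 84, with changes of −0.069 and −0.064 (adjusted p = 0.174 and 0.287, limma). Among cells of at most 5% mitochondrial counts, the rise within the lineage was 3.43 at day 28 and 3.03 at day 84, as over all cells. The highest pool mean was 1.49% for MyoFib and 1.47% for Fib, far below that cut, so it tested the rise little.

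Droplet barcodes seen in several pools were about as frequent among MyoFib cells as among all cells. In controls 59.7% of MyoFib cells carried a droplet barcode also seen in another pool of the same condition, against 57.5% of all control cells. At day 28 the shares were 49.0% and 48.6%, and at day 84 they were 24.9% and 24.7%. The median UMI count of MyoFib cells in shared and unshared droplets was 894 and 875 in controls, 1451 and 1412 at day 28, and 728 and 705 at day 84.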

How the data were processed

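Papilla cells were fixed, dissociated and profiled with a probe-based droplet assay. Per the labels, reads were processed with Cell Ranger 7.1 and the build mm10. The authors excluded cells under 300 detected genes or over 10% mitochondrial counts, corrected ambient RNA (SoupX), removed doublets (scDblFinder), and integrated and clustered all conditions together (Seurat), so cluster membership was set on cells of every condition. The authors deposited for each cell a UMI count (whole-number counts, but fractional expected counts in Control 1), a count of detected genes, a mitochondrial percent, its pool, cell type and cluster. Expression of single genes and reclustered populations were not analysed here.

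From these, cells, medians and means were computed per cluster and pool, the pool being the replicate. Each share became log2 odds, with 0.5 cells added to either part. All conditions entered 1 limma fit over all clusters (limma 3.58.1, R 4.3.3; lmFit and eBayes, two-sided), with Benjamini-Hochberg adjustment over the clusters of the fit and a threshold of 0.05. Ratios of cell numbers between clusters were instead fitted and adjusted over all 300 pairs of clusters. Clusters with under 10 cells in a pool were left out of per-cell measures of that pool. Permutation tests over pools were exact and two-sided, on mean log2 values or odds. Alternatives were stricter cell filters, other denominators, references and UMI ranges, edgeR 4.0.16 on cell numbers, and leaving out each pool. The probe barcode, which pools of different conditions share, was added as a block after seeing the data, as were the Peri reference and the lineage share among cells of 500 to 1000 UMIs. The fits were tested on simulated data, and no result of that test is given here. Intervals cover counting error only, and p-values the spread between pools. The cells, clusters named and comparisons were chosen with earlier results of these data known. Tables and plots used Python 3.11.15, pandas 2.3.3, scipy 1.17.1 and matplotlib 3.10.9.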

Additional observations from a re-analysis of the deposited data

Results flagged for a closer look

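D28 1 stood apart from the other 3 day 28 pools in its mitochondrial values: the mean percent of its MyoFib cells was 0.191, against 0.0127 to 0.0133, the share of them with no mitochondrial UMI was 28.8%, against 86.3% to 91.5%, and the MyoFib mean minus the Fib mean was −0.0944 percentage points, against −0.00814 to 0.00262. The same pool was the most deeply read of all 10. In Control 1, the pool with fractional UMI counts, the MyoFib median of detected genes was 0.746 of the pool's median, against 0.688 to 0.694 in the other control pools. Of 44 groups of 4 pools examined in this way, 4 had such a sample, where chance gives about 2.2.

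The detected genes of MyoFib cells at 1000 to 2000 UMIs, relative to their pool, differed between the 2 times after R-UUO by −0.15 log2 (limma adjusted p = 0.0111). Against control the difference was 0.12 at day 28 and −0.030 at day 84, the latter running from −0.30 at 2000 to 4000 UMIs to 0.16 against Fib. The call was lost against Fib (−0.044, limma adjusted p = 0.612) and without either day 84 pool (limma adjusted p = 0.0560 and 0.0898), and the direction turned at 500 to 1000 UMIs (0.025, limma adjusted p = 0.802). At 2000 to 4000 UMIs, a range with 10 MyoFib cells in D84 2, it passed at −0.38 (limma adjusted p = 0.0104). At 1000 to 2000 UMIs the other lineage clusters moved the same way. Fib differed by −0.10 (limma adjusted p = 0.134) and Peri by −0.11 (limma adjusted p = 0.0644).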

How the results depend on the processing

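The MyoFib rise within the lineage passed in all 20 alternatives at both times (2.41 to 4.44 in log2 odds at day 28 and 2.15 to 4.07 at day 84, lowest among cells of 500 to 1000 UMIs, and by edgeR 1.58 and 1.49 as log2 changes of the share itself), that in lineage UMIs in all 14, and that among all cells in all 20 at day 28 (1.69 to 2.91) and 17 of 20 at day 84. For the last, the probe barcode block gave 1.60, and leaving out pools 1.34 to 2.19. UMIs relative to the pool passed at day 28 with the mean of log2 values (0.34) and with Fib (0.82), Peri (0.33) or the mean of clusters (0.46) as reference, and at day 84 with the same (0.39, 0.54, 0.23 and 0.40) and without Control 1 (0.35; range without a pool 0.19 to 0.42). Detected genes at day 84 did not pass against Peri (0.14), with 0.18 to 0.40 without a pool. For detected genes within a shared UMI range, day 28 missed the threshold at 500 to 1000 (0.10) and at 2000 to 4000 UMIs (0.081). Day 84 against day 28 missed it against Fib (−0.044) and turned to 0.025 at 500 to 1000 UMIs. That difference passed at −0.38 at 2000 to 4000 UMIs (10 MyoFib cells in D84 2) and ran from −0.16 to −0.13 without a pool. Day 84 against control passed in no alternative (−0.30 to 0.16). The change of the mitochondrial gap turned to −0.069 and −0.064 against Fib. Ratios changed at day 84 numbered 6 with the block and 4 to 18 without a pool, and between the later times 0 to 2. The causes were not tested. With the day 84 group at 1 pool, that pool was assumed to vary like the others. Pool numbers match probe barcodes in controls and at day 28 but not at day 84, and no source used here pairs the animals; the probe barcode block, run on each measure with its main reference only, changed no other such call, and gave 17 ratio calls at day 28 against 19 without it. Precision is limited by 2 pools at day 84 and 4 elsewhere.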
